A study of Drosophila melanogaster with 24 samples.

Results

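The genes described here are the nuclear genes of Drosophila melanogaster that encode subunits of oxidative phosphorylation, the process by which mitochondria make ATP with oxygen. They were chosen by symbol alone: names that begin with ND-, with ATPsyn, with COX and a digit, with UQCR-, or with Sdh and a letter from A to D. The rule found 80 of 17830 annotated genes. Of these, 62 are subunits of the 5 complexes, with 34 in complex I, 4 in complex II, 6 in complex III, 7 in complex IV and 11 in complex V. The other 18 have names ending in L, or in L and a digit, which mark testis-type paralogs, and are described apart. ND-MNLL, whose name also ends in L, was counted as a subunit of complex I. On build dm6, 12 of the 62 subunit genes lie on chromosome arm 2L, 11 on 2R, 12 on 3L, 13 on 3R, 2 on chromosome 4 and 12 on X.

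Complex I, the NADH dehydrogenase, and complex II, the succinate dehydrogenase, pass electrons to ubiquinone in the inner mitochondrial membrane, complex III passes them on to cytochrome c, and complex IV hands them to oxygen. The proton gradient built on the way drives complex V, the ATP synthase. In the fly midgut, stem cells and their enteroblast daughters renew absorptive enterocytes, which are rich in mitochondria, and flies carry second copies of some subunit genes that are used mainly in the male germ line.

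RNA was sequenced in 24 libraries, which fall into 7 groups. The midgut groups have 4 libraries each and carry esgts, a temperature-sensitive driver active in stem cells and enteroblasts: 30-day-old flies with lacZ, 10-day-old flies with RNA interference against Adar (labelled Adar IR), and 10-day-old flies with lacZ, the control transgene. Adar encodes an enzyme that edits adenosine to inosine in RNA. The other 4 groups have 3 libraries each and no age in the labels: knockdown of Zn72D, an RNA-binding zinc-finger protein, with its control, and overexpression of ADAR(E374A), a form with a substitution in its catalytic domain, with its control. The design text places the overexpression in the midgut, while these 12 libraries are labelled whole organism as their tissue and the extract protocol of all 24 describes stem cells of the midgut isolated by flow cytometry. Since no label states that replicates come from separate animals or cultures, the p-values cover the spread among these libraries alone, and that spread may be technical.

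The libraries did not all match their labels. Adar had 16.0, 11.2, 23.5 and 7.78 TPM (a StringTie level corrected for gene length) in the Adar knockdown libraries, against 29.2, 37.5, 45.7 and 38.6 TPM in 10-day lacZ libraries, and was lower in all 4 (log2 fold change −1.40, adjusted p = 0.0125 by limma, and −0.98 with an adjusted p of 0.0538 after scaling to the median gene). Zn72D did not pass the test in its knockdown, with 10.6, 17.9 and 16.0 TPM against 18.6, 18.1 and 16.9 TPM in controls. In the E374A set Adar ran against the titles, with 17.2, 14.5 and 15.8 TPM in the libraries labelled overexpression and 879, 801 and 31.5 TPM in those labelled control. Each library labelled overexpression also had equal coverage, within 0.1%, for 83.2% to 83.6% of genes of the Zn72d control with its number, so these 2 groups largely share their reads. The 6 markers of stem cells and enteroblasts summed to between 668 and 1575 TPM in the midgut libraries and to between 37.4 and 51.8 TPM in the other libraries except labelled control 3, which had 771 TPM. The 10 enterocyte markers summed to between 81950 and 115212 TPM in those other libraries, to 1053 TPM in labelled control 3 and to between 393 and 2047 TPM in the midgut libraries. Labelled control 3 and the 12 midgut libraries were deposited in another table format than the remaining 11, so levels set across these formats may differ through the format. Estimated depth was 3.397 to 6.683 gigabases aligned in the first format and 5.573 to 7.621 in the second.

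Transcripts of nearly all subunits were found in all libraries. Of the 62 subunit genes, 60 were at 1 TPM or more in all 24. The exceptions were UQCR-14, of complex III, and ND-B8, of complex I. UQCR-14 had at most 0.0130 TPM in the 13 libraries of the assembled format and 173 to 332 TPM in the other 11. It overlaps CG32576 on the opposite strand, which had 67.5 to 168.6 TPM in the 13 libraries and 21.3 to 39.1 TPM in the 11. ND-B8 stayed at or under 2.65 TPM throughout, beside its opposite-strand neighbour Gs1l. Because the strand setting of the counting is not given, reads of such pairs cannot be told apart, and 28 of the 62 genes share exonic bases with a gene on the opposite strand.

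**Figure D1:**
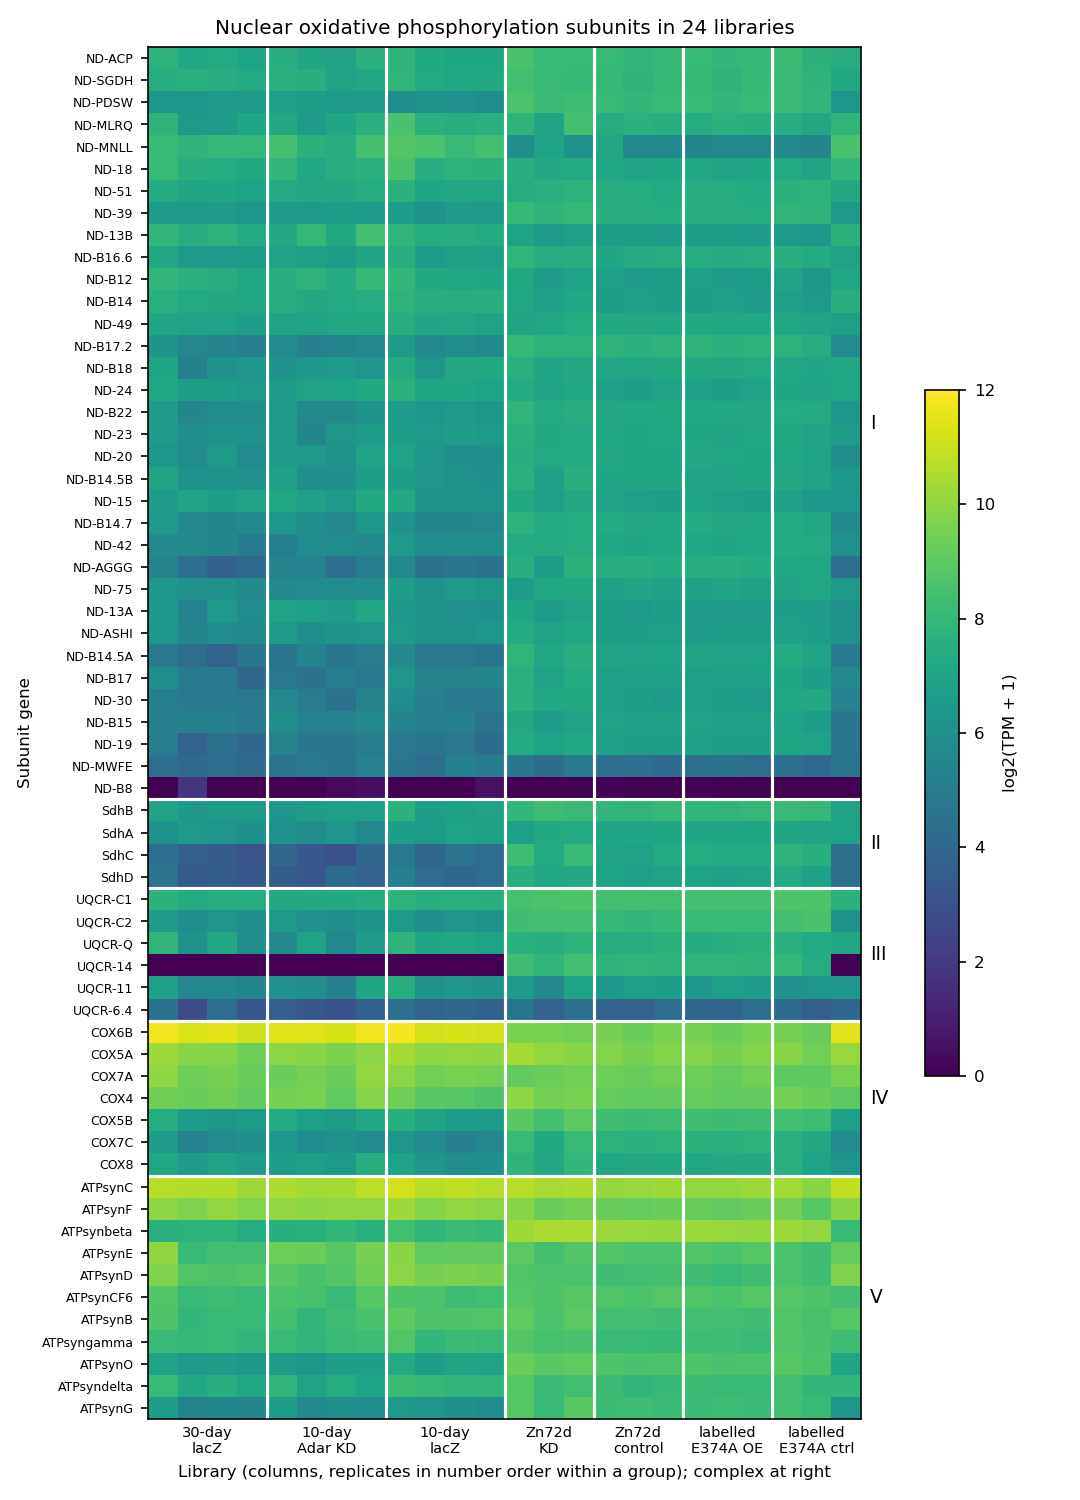
Levels of the 62 subunit genes (rows, ordered by complex) in the 24 libraries (columns, by group), as log2(TPM + 1) in colour. UQCR-14 is dark in 13 columns and bright in 11, and the third column of the labelled E374A control looks like the midgut columns.

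Levels differed widely between the subunits of each complex. In the midgut groups the highest member of complex I was ND-MNLL, at 249.8 TPM in 30-day lacZ, 274.3 TPM in Adar knockdown and 359 TPM in 10-day lacZ libraries on average. This gene overlaps CG45089 on its own strand, so its level is uncertain. In the Zn72d groups the highest was ND-PDSW, homologous to the accessory subunit NDUFB10, at 328 TPM in knockdown and 266 TPM in control libraries. SdhB, the iron-sulfur subunit, led complex II in all 7 groups, and UQCR-C1, a core protein, led complex III in all 7. COX6B led complex IV in the midgut, at 2755 TPM in 30-day lacZ, 2857 TPM in Adar knockdown and 2707 TPM in 10-day lacZ libraries, where COX5A led in the Zn72d groups. ATPsynC, which forms the rotating c-ring, led complex V in 6 of the 7 groups, and the catalytic ATPsynbeta led among the libraries labelled E374A overexpression.

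The order of the subunits was nearly the same within the midgut and differed more across formats. Across 60 subunits Spearman's rho between group means was 0.945 to 0.978 among the 3 midgut groups and 0.960 between Zn72d knockdown and its control. It was 0.571 to 0.609 between midgut groups and the Zn72d control. These are descriptions across genes, which are not independent, between groups that differ in table format, tissue label and the marker sums given above. Single subunits moved far in that step. SdhD, a membrane anchor of complex II, had 8.51 to 34.5 TPM in midgut libraries and 109 to 189 TPM in the Zn72d libraries, with no overlap. ATPsynbeta had 174 to 329 TPM in midgut libraries and 1090 to 1422 TPM in the Zn72d libraries. SdhD overlaps PTPMT1 and ATPsynbeta overlaps CG11076 on the opposite strand, so the levels of both are uncertain across the formats. COX6B went the other way, with 2226 to 3669 TPM in midgut and 627 to 774 TPM in the Zn72d libraries, and it overlaps CG18809 on its own strand.

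Summed over its subunits, each complex was compared across the groups. Complex I summed to 3946, 2859, 2985 and 2711 TPM in 30-day lacZ, 3626, 3155, 2925 and 3995 TPM in Adar knockdown, and 4889, 3245, 3277 and 3263 TPM in 10-day lacZ libraries. Library 1 was the highest of both lacZ groups, and the groups overlapped. Complex II summed to 241, 192, 189.7 and 175 TPM in 30-day lacZ, 169, 171, 206 and 185 TPM in Adar knockdown, and 371, 232, 276 and 275 TPM in 10-day lacZ libraries. The 4 Adar knockdown libraries lay below all 4 10-day lacZ libraries, while the 30-day group overlapped the 10-day group through its library 1. Complex III had sums of 451 ± 153, 389.6 ± 70.8 and 541 ± 126 TPM in 30-day lacZ, Adar knockdown and 10-day lacZ libraries (SD, n = 4 each). In the same order complex IV averaged 5362, 5592 and 5379 TPM and complex V averaged 4898, 5115 and 6205 TPM, with overlap between all 3 groups.

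**Figure D2:**
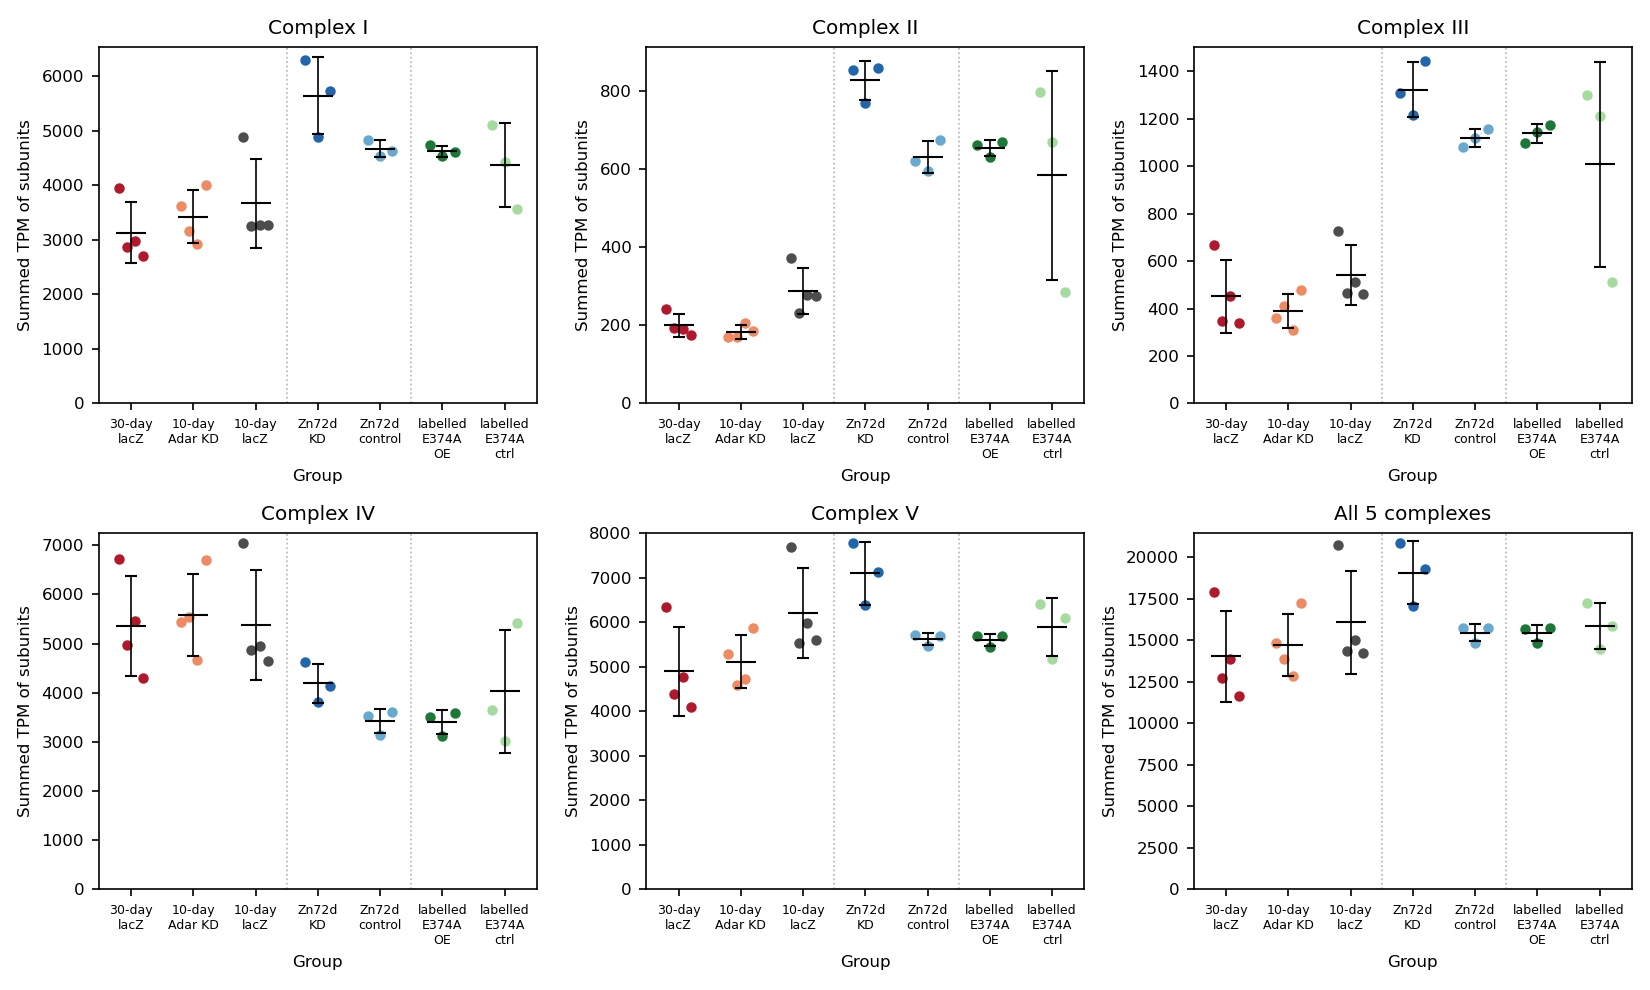
Summed TPM of the subunits of each complex and of all 5 together (y axes) in each library (points) by group (x axis), with the mean and SD of each group. The 3 Zn72d knockdown libraries lie above the 3 controls in all 6 panels, and library 1 of the 10-day lacZ group is the highest of its group in all 6.

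In the Zn72d set all 5 sums were higher in the knockdown libraries, with no overlap. Complex I summed to 6297, 4891 and 5728 TPM in knockdown libraries and to 4836, 4543 and 4633 TPM in controls. Complex II summed to 854, 769 and 857 TPM in knockdown libraries, against 621, 594 and 675 TPM in controls. The lowest library of the knockdown group was library 2 for all 5 complexes. Complex III had 1307, 1216 and 1445 TPM in knockdown libraries and 1080, 1120 and 1156 TPM in controls. Complex IV had 4619, 3817 and 4135 TPM in knockdown libraries and 3522, 3140 and 3603 TPM in controls. Complex V had 7790, 6378 and 7137 TPM in knockdown libraries and 5717, 5467 and 5682 TPM in controls. These sums are given as descriptions, and the tests below are per gene.

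The first comparison set 30-day against 10-day lacZ flies and asked how cells of the aged midgut differ. Without a replicate block no nuclear subunit gene passed the test with age, and with it ATPsynB, ATPsynD and ND-MLRQ were lower. Which side of the median of all genes the subunits lay on depended on single libraries. The counts that follow are without a block. By limma on log2(TPM + 1), with Benjamini-Hochberg adjustment over all 8714 genes tested and a call at an adjusted p under 0.05, 0 of 60 tested subunits were higher and 0 lower. At an unadjusted p under 0.05 there were 1 higher (1.67%) and 12 lower (20.0%), where 8.15% of all genes were higher and 29.6% lower. Among all genes 19.8% were called, 4.29% higher and 15.5% lower. The median log2 fold change was −0.29 over the subunits and −0.32 over all genes. With 1 library left out the first lay between −0.44, without 30-day library 1, and −0.18, without 10-day library 1, and the subunits less all genes between −0.10 and 0.17 without the same libraries. After median-ratio scaling, which centres the typical gene, the medians were 0.10 and 0.04. Under that scaling 1 subunit was higher and 0 lower, where 6.45% of all genes were higher and 2.54% lower. These are bulk samples, in which fewer cells of a type and less RNA per cell cannot be told apart.

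By complex, the medians spread around that of all genes. They were −0.26 for complex I, −0.66 for complex II, −0.31 for complex III, 0.03 for complex IV and −0.40 for complex V. All 4 subunits of complex II lay below the median of all genes and all 7 of complex IV above it, on both scales. SdhA, the flavoprotein that oxidises succinate, had 71.8, 88.9, 75.2 and 64.4 TPM in 30-day libraries and 104, 92.6, 125 and 117 TPM in 10-day libraries. The age groups did not overlap, and the log2 fold change of −0.54 ± 0.19 (SE) missed the threshold (adjusted p = 0.0552 by limma). It passed without 10-day library 2 (−0.62, adjusted p = 0.0441). SdhB had 127, 82.6, 93.7 and 94.6 TPM at 30 days and 204, 105, 113 and 121 TPM at 10 days, so the groups overlapped. COX8, a small subunit of complex IV, had 144, 99.4, 120.4 and 99.6 TPM at 30 days and 125, 79.4, 60.0 and 64.7 TPM at 10 days, with overlap and a log2 fold change of 0.53 ± 0.26 (adjusted p = 0.151).

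The subunits with the smallest p-values in the other complexes also missed the threshold. ATPsynD, of the peripheral stalk that holds the ATP synthase head, had 813, 429, 395 and 441 TPM in 30-day libraries, against 969.9, 753, 783 and 748 TPM in 10-day libraries. Library 1 of the 30-day group overlapped the 10-day group and the other 3 lay below it. The log2 fold change was −0.70 ± 0.24 (adjusted p = 0.0513 by limma), and without 30-day library 1 it was −0.94 and passed (adjusted p = 0.0107). ND-B18, an accessory subunit of complex I, had 136, 37.4, 70.9 and 75.6 TPM at 30 days and 164, 81.4, 152 and 156 TPM at 10 days (log2 fold change −0.87 ± 0.33, adjusted p = 0.0712). UQCR-11 had 108, 46.5, 48.3 and 41.3 TPM at 30 days and 177, 71.7, 77.5 and 74.0 TPM at 10 days (log2 fold change −0.71 ± 0.40, adjusted p = 0.211). Library 1 was the highest of both groups in UQCR-11 and ATPsynD. Leaving out 30-day library 1 brought 9 lower calls (ATPsynB, ATPsynD, ATPsynE, ND-ASHI, ND-B17, ND-B18, ND-MLRQ, SdhC and SdhD), leaving out 10-day library 2 brought 4 (ATPsynbeta, ND-B18, ND-MWFE and SdhA), and leaving out 10-day library 1 brought 2 higher calls (COX8 and ND-15).

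Subunits whose libraries did not overlap between the ages were few. ND-PDSW was higher in all 30-day libraries, and ATPsynbeta, ND-42 and SdhA were lower in all of them. Over all genes, 5.78% were higher without overlap and 23.0% lower. ATPsynbeta had 194, 218, 219.7 and 174 TPM at 30 days and 329, 236, 286 and 259 TPM at 10 days. ND-42, an accessory subunit of complex I, had 49.7, 52.0, 44.2 and 31.1 TPM at 30 days and 87.8, 56.0, 60.6 and 59.7 TPM at 10 days. ND-PDSW had 80.8, 78.9, 86.1 and 89.9 TPM at 30 days and 58.1, 71.2, 66.3 and 58.8 TPM at 10 days. Its log2 fold change was 0.40 ± 0.15 (adjusted p = 0.0778 by limma), and 0.79 with a call after median-ratio scaling (adjusted p = 0.0143).

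Other abundant subunits overlapped between the ages. ND-SGDH, an accessory subunit of complex I homologous to NDUFB5, had 174.5, 192, 178 and 161 TPM at 30 days and 234, 161, 147 and 155 TPM at 10 days. UQCR-C2 had 97.5, 58.3, 74.5 and 59.8 TPM at 30 days and 92.6, 57.8, 76.3 and 70.3 TPM at 10 days. Neither gene had a group that lay as a whole above or below the other. COX5A had 1223, 931.5, 891 and 657 TPM at 30 days and 1347, 1011, 1074 and 1031 TPM at 10 days, where 30-day library 1 lay inside the 10-day range and the other 3 below it. ATPsynC had 1686, 1593, 1592 and 1227 TPM at 30 days and 2334, 1666, 1838 and 1638 TPM at 10 days, again with 30-day library 1 alone inside the 10-day range. ND-ACP, the mitochondrial acyl carrier protein, had 216, 148, 159 and 126 TPM at 30 days and 226, 154, 135 and 135 TPM at 10 days, so its ranges overlapped too.

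**Figure D3:**
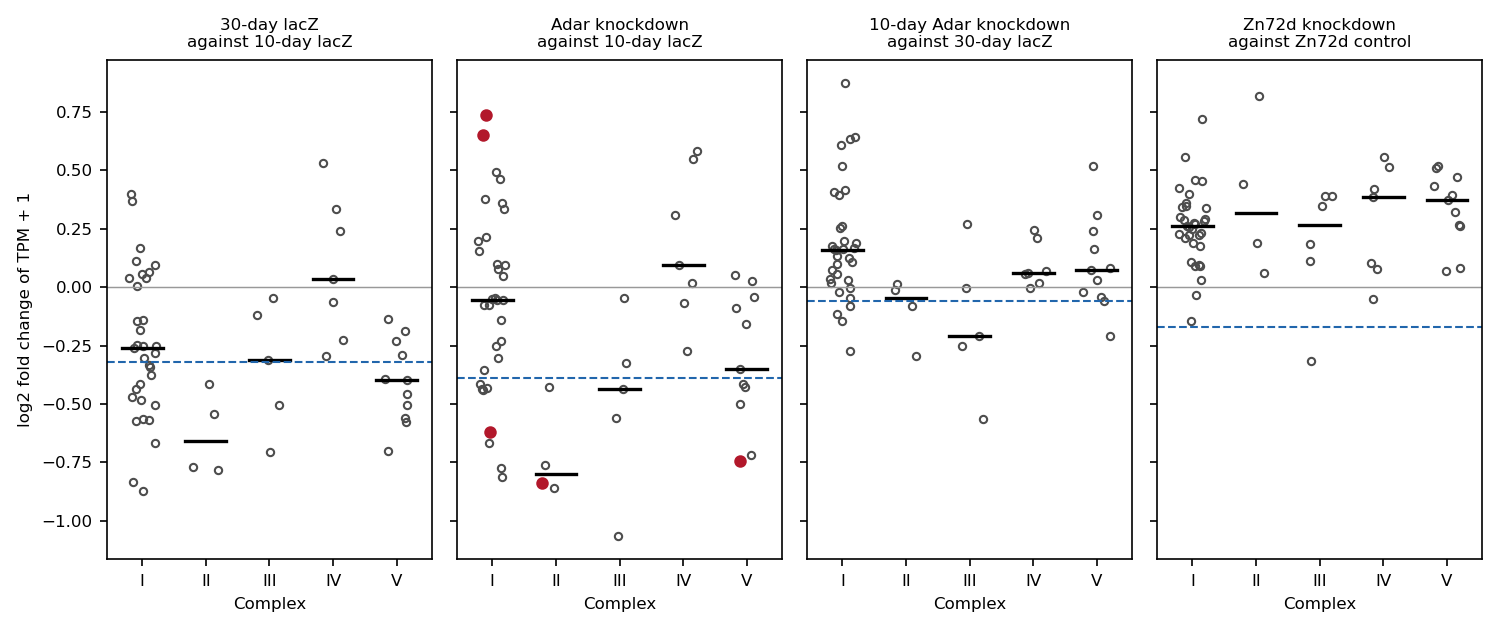
log2 fold change of each tested subunit (points) by complex (x axis) in 4 panels, 1 per comparison, with the median of each complex (black bar) and of all genes tested (dashed line). Filled red points passed the test: 5 in the panel of Adar knockdown against 10-day lacZ and 0 in the others. Nearly all points of the Zn72d panel lie above the line of all genes.

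The second comparison set Adar knockdown against lacZ at 10 days and asked what loss of the editing enzyme changes in midgut cells. Of 60 tested subunits 5 passed the test: ND-PDSW and ND-13A rose, and SdhA, ND-75 and ATPsynD fell. The 2 that rose are 3.33% of those tested, where 3.75% of all genes were higher and 16.0% lower, 19.7% in all. After median-ratio scaling 4 were higher (COX4, ND-13A, ND-B15 and ND-PDSW) and 0 lower, where 5.11% of all genes were higher and 1.32% lower, 6.43% in all. At an unadjusted p under 0.05 there were 4 higher (6.67%) and 14 lower (23.3%) on TPM as deposited, where 627 of 8714 genes were higher and 31.8% lower, so both shares lay below those of all genes. The median log2 fold change was −0.08 over the subunits and −0.39 over all genes, and 0.35 and 0.02 after median-ratio scaling. With 1 library left out the median of the subunits lay between −0.18, without knockdown library 4 or lacZ library 4, and 0.02, without lacZ library 1, the only one to turn its sign. It stayed above that of all genes by 0.17 to 0.42 in these 8 fits. On TPM as deposited 40 of the 60 lay above the median of all genes.

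Both subunits that rose belong to the accessory part of complex I. ND-PDSW (chromosome 2L, 3466157 to 3467334, plus strand) had 108, 105, 91.5 and 96.1 TPM in knockdown libraries and 58.1, 71.2, 66.3 and 58.8 TPM in 10-day lacZ libraries. All 4 knockdown libraries lay above all 4 lacZ libraries (log2 fold change 0.65 ± 0.15, adjusted p = 0.0161 by limma). The call was lost without 10-day lacZ library 4 (0.61, adjusted p = 0.0592) and held without any other library. ND-13A (chromosome 2L, 5099177 to 5100288, minus strand), homologous to NDUFS6, had 124.5, 109.5, 93.8 and 147 TPM in knockdown libraries and 80.6, 70.4, 65.5 and 64.3 TPM in 10-day lacZ libraries. These groups did not overlap either (log2 fold change 0.74 ± 0.24, adjusted p = 0.0482). Among the 8 fits with 1 library left out, ND-13A kept its call without knockdown library 3 and without lacZ library 1, and in the other 6 its adjusted p lay between 0.0663 and 0.118. It overlaps CG4230 on the opposite strand, so its level is uncertain.

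Of the subunits that fell, SdhA carried the largest change. It had 65.4, 57.8, 74.6 and 47.7 TPM in knockdown libraries and 104, 92.6, 125 and 117 TPM in 10-day lacZ libraries, with no overlap (log2 fold change −0.84 ± 0.19, adjusted p = 0.0135 by limma). Without 10-day lacZ library 3 it missed the threshold (−0.77, adjusted p = 0.0512). SdhA overlaps CG11257 on the opposite strand. ND-75 (chromosome X, 8248651 to 8251687), the large iron-sulfur core subunit of complex I, had 49.7, 56.5, 55.0 and 57.2 TPM in knockdown libraries, against 105, 70.0, 85.2 and 80.1 TPM in lacZ libraries (log2 fold change −0.62 ± 0.19, adjusted p = 0.0354). ATPsynD (chromosome 3R, 19095000 to 19096271) had 493, 372, 437 and 673 TPM in knockdown libraries, against 969.9, 753, 783 and 748 TPM in lacZ libraries (log2 fold change −0.75 ± 0.24, adjusted p = 0.0425). Neither overlapped between groups. With 1 library left out, ND-75 kept its call without knockdown library 3 and without lacZ library 2, and ATPsynD without knockdown library 4. With the other libraries left out the adjusted p lay between 0.0573 and 0.0902 for ND-75 and between 0.0529 and 0.1095 for ATPsynD. After median-ratio scaling none of the 3 passed, with log2 fold changes of −0.41 for SdhA, −0.19 for ND-75 and −0.31 for ATPsynD (adjusted p = 0.149, 0.574 and 0.481). With annotated genes rescaled to 1000000, SdhA alone of the 3 kept its call.

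Complexes III and IV had no call on TPM as deposited. COX4, a nuclear subunit that sits on the mitochondrially encoded core of complex IV, had 746, 779, 543 and 897 TPM in knockdown libraries and 674, 489.8, 465 and 403 TPM in 10-day lacZ libraries, with overlap. Its log2 fold change was 0.55 ± 0.19 (adjusted p = 0.0552 by limma), and 0.98 with a call after median-ratio scaling (adjusted p = 0.0219). It also passed without knockdown library 3 or lacZ library 1 (adjusted p = 0.0243 and 0.0191). UQCR-Q, a small subunit of complex III, had 49.7, 118, 47.9 and 94.4 TPM in knockdown libraries and 220.3, 134, 145 and 124 TPM in lacZ libraries. The groups did not overlap, and the log2 fold change of −1.07 ± 0.41 missed the threshold (adjusted p = 0.0774). SdhC, a membrane anchor beside SdhD, had 14.4, 8.97, 7.04 and 14.7 TPM in knockdown libraries and 27.5, 15.3, 22.7 and 18.3 TPM in lacZ libraries (−0.86 ± 0.32, adjusted p = 0.0651).

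By complex the medians in the Adar comparison were −0.05 for complex I, −0.80 for complex II, −0.43 for complex III, 0.09 for complex IV and −0.35 for complex V, beside −0.39 over all genes. All 4 subunits of complex II lay below the median of all genes, and all 7 of complex IV above it, on both scales. The age comparison shares the 10-day lacZ libraries with this one, so the places of complexes II and IV in both are not independent. Without overlap, 2 subunits were higher and 13 lower (21.7%), where 3.91% of all genes were higher and 18.3% lower. The 13 were ATPsynB, ATPsynD, ATPsynO, ATPsyndelta, COX5A, ND-42, ND-75, ND-B14, ND-B17, SdhA, SdhC, UQCR-C1 and UQCR-Q. Of the abundant subunits, SdhA passed, as given above, and the next 3 missed the threshold. ATPsynC had 1452, 1307, 1316 and 1783 TPM in knockdown libraries and 2334, 1666, 1838 and 1638 TPM in lacZ libraries, which overlapped. COX6B had 2773, 2806, 2444 and 3402 TPM in knockdown libraries and 3669, 2404, 2452 and 2303 TPM in lacZ libraries, with library 1 the highest of the lacZ group. ATPsynF had 1046, 1006, 1058 and 1051 TPM in knockdown libraries and 1222, 872, 1060 and 957 TPM in lacZ libraries, and the lacZ range enclosed the knockdown range.

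Markers of cell types also moved in these 2 comparisons. The 6 markers of stem cells and enteroblasts summed to between 668 and 877 TPM at 30 days, to between 740.5 and 764 TPM on Adar knockdown and to between 1054 and 1575 TPM in 10-day lacZ libraries, and 2 of 6 fell in each comparison, of which mira alone passed in both after median-ratio scaling. Enterocyte markers summed to between 654 and 1350 TPM at 30 days, to between 599 and 2047 TPM on Adar knockdown and to between 393 and 638 TPM in 10-day lacZ libraries. Of the 10, 3 rose with age and 5 on Adar knockdown. Over all genes 4.29% rose and 15.5% fell with age, and 3.75% rose and 16.0% fell on Adar knockdown. Of 5 fat body markers 1 rose with age on both scales and 0 were called on Adar knockdown. Those 5 summed to between 6.40 and 35.5 TPM at 30 days and to between 13.6 and 54.5 TPM on Adar knockdown. In 10-day lacZ libraries they summed to 148, 1.82, 0.790 and 0.626 TPM. All 9 enteroendocrine markers lay above 0 with age (median 1.05), with 1 called and 2 after median-ratio scaling, and 0 were called on Adar knockdown. They summed to 426, 1266, 1212 and 706 TPM at 30 days, to between 265 and 493 TPM on Adar knockdown and to 1961, 124, 192 and 199.8 TPM in 10-day lacZ libraries. Of 4 neuron markers, 3 lay above 0 with age and 1 below, and brp and futsch rose on both scales. The 4 summed to between 53.9 and 74.5 TPM at 30 days and to between 51.0 and 102 TPM in 10-day lacZ libraries, which overlapped. On Adar knockdown they summed to between 24.2 and 46.7 TPM and 0 were called. The part of these cell types in the subunit values was not tested.

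Adar knockdown at 10 days was also set against lacZ at 30 days. Of 60 subunits 0 were called in either direction by limma, where 0.471% of all genes were called, 0.252% higher and 0.218% lower. After median-ratio scaling 0 were called as well, where 0.550% of all genes were, 0.309% higher and 0.241% lower. At an unadjusted p under 0.05 there were 3 higher and 0 lower, where 5.20% of all genes, or 453, were higher and 6.61% lower, so the 3 of 60 are no more than the share of all genes. The 3 were ND-13A, with 124.5, 109.5, 93.8 and 147 TPM on knockdown and 83.1, 39.6, 86.5 and 56.6 TPM at 30 days (log2 fold change 0.87 ± 0.24, adjusted p = 0.178), ND-MWFE (0.64 ± 0.22, adjusted p = 0.271) and ND-19 (0.61 ± 0.27, adjusted p = 0.406), all of complex I. ND-MWFE had 23.8, 27.9, 24.7 and 38.6 TPM on knockdown and 19.9, 16.0, 18.5 and 16.8 TPM at 30 days, with no overlap. Without overlap 4 were higher (ND-13A, ND-B15, ND-MWFE and ND-PDSW) and 1 lower (UQCR-C1), where 3.27% and 4.07% of all genes were. UQCR-C1 had 149, 153, 155 and 165 TPM on knockdown and 212, 166, 173 and 171 TPM at 30 days (log2 fold change −0.21 ± 0.15, adjusted p = 0.632). ATPsynE, of the membrane sector of complex V, had 660.3, 607, 468 and 738 TPM on knockdown, against 1041, 284, 329.8 and 335 TPM at 30 days, where library 1 stood above the rest. The median was 0.07 over the subunits and −0.06 over all genes, and with 1 library left out that of the subunits lay between 0.01, without knockdown library 4, and 0.20, without 30-day library 1.

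Knockdown of Zn72d against its control asked what this RNA-binding protein changes. Nearly all nuclear subunits of all 5 complexes were a little higher in the knockdown libraries, relative both to controls and to other genes, and no single one passed the test. By limma 0 of 61 tested subunits were called, where 2.13% of all 8444 genes were, 0.888% higher and 1.24% lower. At an unadjusted p under 0.05 there were 14 higher and 0 lower, or 23.0% of the subunits higher, where 6.06% of all genes were higher and 13.7% lower. The median log2 fold change was 0.27 over the subunits and −0.17 over all genes, and 0.45 and −0.01 after median-ratio scaling, under which 0 subunits and 2.61% of all genes were called, 1.33% higher and 1.28% lower. With each library left out in turn the median of the subunits lay between 0.24 and 0.38. Of the 61, 57 lay above 0, and 60 lay above the median of all genes on both scales. No p-value is given for the shared direction, since the subunits were measured in the same 6 libraries.

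The shift was found in each complex. The medians were 0.26 for complex I, 0.32 for complex II, 0.27 for complex III, 0.39 for complex IV and 0.37 for complex V. All 33 tested subunits of complex I lay above the median of all genes, as did all 4 of complex II, 5 of 6 of complex III, all 7 of complex IV and all 11 of complex V. In 31 of 61 subunits (50.8%) all 3 knockdown libraries lay above all 3 controls, and in 0 they lay below. Over all genes 8.56% were higher without overlap and 19.8% lower. The 4 subunits below 0 were UQCR-11 (−0.32), ND-AGGG (−0.15), COX7A (−0.05) and ND-49 (−0.03).

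The smallest p-values per complex belonged to subunits of different roles. ND-30 (chromosome 3L, 3158485 to 3159578), the NDUFS3 core subunit of complex I, had 203, 147 and 157 TPM in knockdown libraries and 108, 105 and 91.6 TPM in controls. Its log2 fold change of 0.72 ± 0.18 was the nearest to a call (adjusted p = 0.0823 by limma). SdhC had 310.4, 162 and 266 TPM in knockdown libraries and 127, 118 and 163 TPM in controls, with overlap (0.82 ± 0.25, adjusted p = 0.148). Its value was 35.1% and 35.2% higher in the libraries with which controls 1 and 2 share most reads. COX4 (chromosome 2L, 19958713 to 19960065) had 989, 714 and 774 TPM in knockdown libraries and 573, 531 and 563 TPM in controls (0.56 ± 0.16, adjusted p = 0.133). ATPsyngamma, the central shaft of the ATP synthase, had 443, 366 and 375 TPM in knockdown libraries and 279.8, 282 and 266 TPM in controls (0.51 ± 0.15, adjusted p = 0.131). UQCR-C2, the second core protein of complex III, had 314, 338 and 342 TPM in knockdown libraries and 250.4, 249 and 259 TPM in controls (0.39 ± 0.14, adjusted p = 0.189). Apart from SdhC these 5 showed no overlap. In the libraries that share most reads with controls 1 and 2, ATPsyngamma was 10.8% and 10.4% higher than in those controls. UQCR-C2 was 7.69%, 8.60% and 8.54% higher in the libraries sharing reads with controls 1, 2 and 3.

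The abundant subunits given here were higher on average without a call. ATPsynC had 1681, 1384 and 1480 TPM in knockdown libraries, against 1106, 1139 and 1254 TPM in controls (0.37 ± 0.14, adjusted p = 0.209 by limma). ATPsynbeta had 1265, 1422 and 1408 TPM in knockdown libraries and 1182, 1126 and 1090 TPM in controls (0.27 ± 0.14, adjusted p = 0.296). COX5A had 1329, 1050 and 927 TPM in knockdown libraries and 874, 749 and 885 TPM in controls. All 3 genes were higher in every knockdown library. ND-ACP had 375, 267 and 277 TPM in knockdown libraries and 271, 241 and 264 TPM in controls, with overlap. ND-SGDH had 326, 274 and 258 TPM in knockdown libraries and 264, 223.5 and 263 TPM in controls, which also overlapped. UQCR-C1 had 362, 395 and 409 TPM in knockdown libraries and 339, 338 and 347 TPM in controls, and ATPsynF had 938, 618.5 and 717.5 TPM in knockdown libraries and 613, 570.1 and 611.5 TPM in controls, both without overlap. SdhB had 246, 306 and 282 TPM in knockdown libraries and 236, 234 and 258 TPM in controls, and COX6B had 774, 767 and 697 TPM in knockdown libraries and 733, 627 and 770.1 TPM in controls, both with overlap. SdhA changed little, with 109, 156 and 159.9 TPM in knockdown libraries and 133, 134 and 135 TPM in controls. Knockdown library 1 was the lowest of the 6, and the log2 fold change of 0.06 ± 0.18 (adjusted p = 0.860) was −0.02 or −0.04 without knockdown library 2 or 3.

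Other tissue markers were set beside this shift. The 8 muscle markers summed to 1603, 2028 and 1844 TPM in knockdown libraries and to 1543, 1417 and 1545 TPM in controls, with no overlap. Of the 8, 5 lay above 0 and 3 below, and 0 were called. The 6 markers of stem cells and enteroblasts summed to 49.6, 46.1 and 51.8 TPM in knockdown libraries and to 41.0, 40.5 and 42.2 TPM in controls, also with no overlap. Of these 6, 4 lay above 0 and 2 below, and 0 were called. Fat body markers summed to 139.9, 173 and 153 TPM in knockdown libraries and to 83.7, 80.3 and 40.9 TPM in controls, again with no overlap. Enterocyte markers summed to 97492, 100681 and 88842 TPM in knockdown libraries and to 100753, 100068 and 115212 TPM in controls, which overlapped. Of these 10 markers 8 lay below 0, with a median of −0.22 beside −0.17 over all genes. LManVI alone was called, lower by −1.42 (adjusted p = 0.0393 by limma, and 0.0316 after median-ratio scaling). Over all genes 1.24% were called lower there, and 1.28% after that scaling. The part of these cell types in the subunit shift was not tested, and neither was that of Zn72D itself, whose own transcript did not pass the test.

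In the E374A set 0 of 61 subunits were called by limma, where 0.319% of 8785 genes were, 0.285% higher and 0.0341% lower. At an unadjusted p under 0.05 there were 0 subunits, where 3.44% of all genes were higher and 2.58% lower. After median-ratio scaling 0 were called as well, where 0.724% of all genes were, 0.678% higher and 0.0460% lower. All directions follow the titles, against which Adar runs. With labelled control 3 the median was 0.14 over the subunits and −0.36 over all genes. Without it the median was −0.02 over the subunits and −0.15 over all genes, with 26 above and 35 below 0. In that fit 0 subunits were called, where 3.88% of 8502 genes were. At an unadjusted p under 0.05 there were 0 higher and 3 lower of 61, where 17.4% of all genes passed in either direction. ND-AGGG, an accessory subunit of complex I, had 179, 186 and 167 TPM in libraries labelled overexpression and 144, 143 and 19.7 TPM in those labelled control (log2 fold change 1.24 ± 0.81, adjusted p = 0.583). SdhD had 124, 108 and 118 TPM in the libraries labelled overexpression, against 160.5, 115.3 and 20.3 TPM in those labelled control (0.67 ± 0.79, adjusted p = 0.637). The low value of both genes was in labelled control 3, which also set ATPsynD apart, at 319, 284 and 314 TPM in libraries labelled overexpression and 383, 316 and 831 TPM in those labelled control. COX7C and UQCR-11 had log2 fold changes of 0.82 ± 0.54 and 0.38 ± 0.29 (adjusted p = 0.583 for both). Without overlap 5 were higher (COX7C, ND-49, ND-AGGG, ND-B18 and UQCR-11) and 2 lower (ATPsynB and ND-24), where 7.60% and 16.1% of all genes were.

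The 18 testis-type paralogs were near the limit of detection, with 13 under 1 TPM in all 24 libraries. ATPsynbetaL (chromosome 3L, 16097834 to 16100088), a copy of the catalytic subunit, reached the highest level of them in the midgut. It had 8.91, 8.72, 13.0 and 5.92 TPM in 30-day lacZ, 1.25, 8.66, 9.21 and 6.78 TPM in Adar knockdown and 1.33, 0.137, 0.389 and 0.409 TPM in 10-day lacZ libraries. All 30-day libraries lay above all 10-day lacZ libraries, and knockdown library 1 lay within the range of the 10-day lacZ group. It rose with age by a log2 fold change of 2.703 ± 0.45 (adjusted p = 0.00480 by limma) and on Adar knockdown by 2.09 ± 0.45 (adjusted p = 0.0122), and both calls held in all 16 alternatives run. Its mean passed the filter of 1 TPM only through the 30-day and knockdown libraries, so its being tested depended on the difference tested. The alternatives include a fit with no filter on low values. The 2 comparisons share the 10-day lacZ libraries. Between knockdown and 30-day libraries its log2 fold change was −0.61 ± 0.45 (adjusted p = 0.644). In the Zn72d set it stayed at or under 0.778 TPM. Markers of testis summed to between 1.63 and 6.536 TPM in 30-day lacZ, to between 0.00581 and 6.95 TPM in Adar knockdown and to between 0.156 and 2.41 TPM in 10-day lacZ libraries, with 10 of 11 under 1 TPM in all. The part of testis RNA in the ATPsynbetaL values was not tested.

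**Figure D4:**
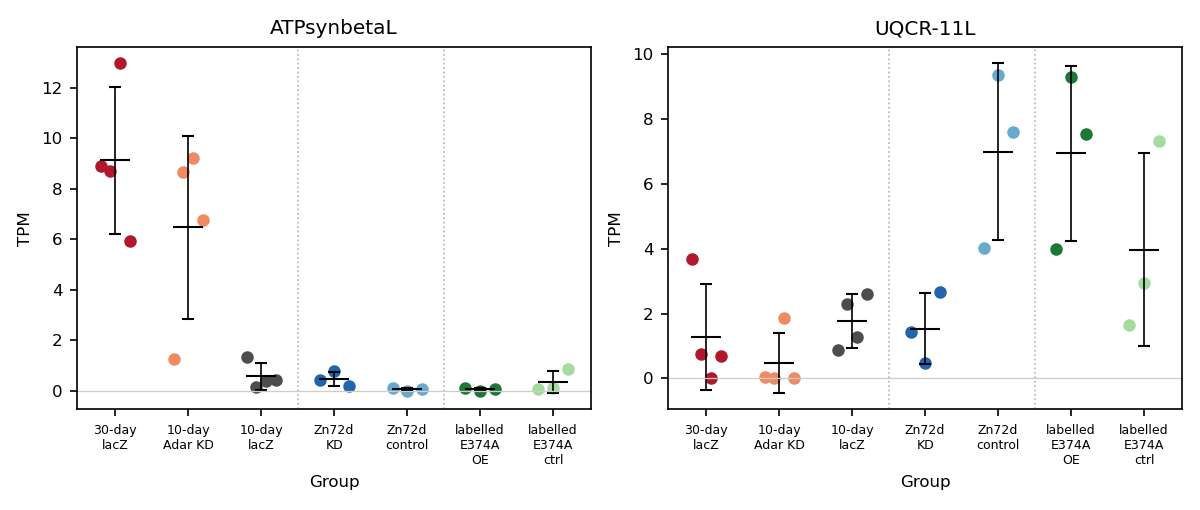
TPM of the testis-type paralogs ATPsynbetaL and UQCR-11L (y axes) in each library (points) by group (x axis), with mean and SD. ATPsynbetaL lies above 5 TPM in all 4 30-day libraries and in 3 of 4 Adar knockdown libraries, and at or below 1.33 TPM in 10-day lacZ libraries.

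UQCR-11L was the paralog found in the Zn72d set. It had 1.45, 0.477 and 2.66 TPM in knockdown libraries and 4.03, 9.35 and 7.60 TPM in controls, with no overlap. Its log2 fold change of −1.69 ± 0.37 missed the threshold (adjusted p = 0.0547 by limma), and without knockdown library 3 it passed (−2.01, adjusted p = 0.0232). The subunit it copies, UQCR-11, had the lowest fold change of the 61 in the same comparison. In the midgut it had 3.67, 0.746, 0.00795 and 0.697 TPM in 30-day lacZ, 0.0581, 0, 1.87 and 0 TPM in Adar knockdown and 0.871, 2.30, 1.29 and 2.62 TPM in 10-day lacZ libraries. The other paralogs that reached 1 TPM anywhere were COX7AL, with at most 3.70 TPM in a 30-day library, ATPsynepsilonL, with at most 2.10 TPM, and ND-51L1, with at most 1.10 TPM, both in Adar knockdown libraries. These 3 were too low to be tested.

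Genes around the complexes were read from lists of the same pathway. Of 8 tested genes for subunits and carriers with other names (such as blw, the alpha subunit of complex V, and RFeSP, the Rieske protein), 1 rose on Adar knockdown and 0 fell. Over all genes 3.75% rose and 16.0% fell there. The 1 that rose was sun, the epsilon subunit of the ATP synthase, with 460.4, 338, 349 and 563 TPM in knockdown libraries and 351, 207, 231 and 201 TPM in 10-day lacZ libraries (log2 fold change 0.79 ± 0.22, adjusted p = 0.0267 by limma). In the Zn72d comparison 7 of these 8 lay above 0, with a median of 0.17 and 0 called. Of 12 genes for assembly of the complexes 2 fell in each of the age and Adar comparisons, a share near the 15.5% and 16.0% of all genes that fell. These were Surf1, needed for complex IV, and Bcs1, which inserts the Rieske protein into complex III. Surf1 changed by −0.96 with age and −0.87 on Adar knockdown (adjusted p = 0.0168 and 0.0255), and Bcs1 by −0.91 and −0.82 (adjusted p = 0.0157 and 0.0245).

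Enzymes that feed the chain were read the same way. Of 14 genes of the citric acid cycle 5 fell with age and 0 rose, where 15.5% of all genes fell and 4.29% rose. They were kdn, the citrate synthase (−0.58), mAcon1, the aconitase (−0.87), the isocitrate dehydrogenase subunits Idh3b (−1.14) and Idh3g (−0.85), and muc, of the pyruvate dehydrogenase complex (−0.84). All but kdn also fell on Adar knockdown, where 16.0% of all genes fell. Of 12 genes of glycolysis 1 rose with age, again beside 4.29% of all genes. This was Ldh, the lactate dehydrogenase, with 613, 1648, 1589 and 2620 TPM at 30 days and 397, 716, 283 and 382 TPM at 10 days (log2 fold change 1.77 ± 0.43, adjusted p = 0.0168 by limma). Its groups overlapped through 30-day library 1 and 10-day library 2. Of 4 tested carriers of the mitochondrial membranes 1, sesB, the ADP/ATP exchanger, fell on Adar knockdown (−0.63, adjusted p = 0.0204), again beside 16.0% of all genes. Of 7 genes for mitochondrial biogenesis, srl, the fly PGC-1, and TFAM, which packages mitochondrial DNA, fell with age (−1.06 and −0.95, adjusted p = 0.0365 and 0.0317), and ewg, the fly NRF-1, fell on Adar knockdown (−1.04, adjusted p = 0.0355), which are 2 of 7 and 1 of 7 beside the same shares of all genes. In the comparison of Adar knockdown with 30-day lacZ, and in the Zn72d and E374A sets, 0 genes of these lists were called by limma. After median-ratio scaling sun and Ldh kept their calls, and none of the genes of these lists that fell passed, with log2 fold changes between −0.76 for Idh3b with age and −0.13 for Idh3g on Adar knockdown. Under that scaling levy, a subunit of complex IV, the glycolytic genes Pgi and Tpi and the phosphate carrier Mpcp2 also rose on Adar knockdown, and Mpcp2 rose with age.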

How the data were processed

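Alignment was with STAR 2.7.1a to build dm6 and quantification with StringTie, whose version is missing, per the submitters' processing notes; no source used here gives the annotation release or strand setting. For each library the authors deposited a table of genes with coverage, FPKM and TPM. Per the file headers, TPM is scaled to a fixed total and FPKM by length and depth. In 11 tables the deposited TPM sum to 1000000. The other 13 are tables of loci assembled by StringTie, in which the deposited TPM column is a signal: the loci reach 1000000 and the annotated genes add 881199 to 987040. The annotated genes added 963356 to 984051 in 10-day lacZ, 935996 to 950892 in 30-day lacZ and 881199 to 955176 in Adar knockdown libraries. All 10-day lacZ sums thus lay above those of both midgut groups set against them. Annotated values were used as deposited, so they do not share 1 total. The deposited coverage signal and FPKM served to compare libraries and to estimate aligned bases. Read counts were not used, so no counting interval is given.

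Tests were made with limma 3.58.1 (lmFit, then eBayes with trend and robust variances through statmod 1.5.0, R 4.3.3) on log2(TPM + 1), which understates changes of low genes. Genes needed a mean of at least 1 TPM over the libraries fitted. Tests were two-sided, with Benjamini-Hochberg adjustment over all genes and a threshold of 0.05. One fit held the 3 midgut groups and the other 2 sets were fitted alone, without a replicate block. Of the 62 subunits, 60 were tested in the midgut and 61 elsewhere, and of the 18 paralogs ATPsynbetaL and UQCR-11L. The script was tested on simulated data. Python 3.11.15, pandas 2.3.3, numpy 2.4.6 and matplotlib 3.10.9 read and drew the values.

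Members and gene lists were chosen with earlier results of these data known. Values per library are mainly those of the 2 subunits per complex with the highest mean TPM over all 24 libraries, whose order differs between table formats, of up to 3 called subunits per complex, direction and comparison (with none called, that with the smallest p), and of paralogs reaching 1 TPM. Others are named for counts. Alternatives were median-ratio scaling, rescaling, other pseudocounts and filters, 2-group fits, a replicate block, averaging 2 similar libraries and leaving out each library. No sequences are printed. The mitochondrially encoded subunits were not analysed here: all 13 are listed at 0 in 11 libraries.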

Additional observations from a re-analysis of the deposited data

Results flagged for a closer look

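In 14 of 81 checks, each of a complex sum or a gene in 1 midgut group, 1 library lay far from the other 3. A single check flags by chance about 1 in 20. These checks share libraries and genes, so the 14 cannot be set against that rate. In 8 of the 14 the library set apart was library 1 of the 10-day lacZ group. That library summed to 4889 TPM for complex I, where the others had 3245 to 3277, and to 7038 TPM for complex IV, where the others had 4650 to 4960 TPM. It was also the high one for COX6B (3669 against 2303 to 2452 TPM), ND-SGDH (234 against 147 to 161 TPM) and SdhB (204 against 105 to 121 TPM). For 3 genes library 1 was the high one in both lacZ groups. ATPsynD had 813 TPM in 30-day library 1, against 395 to 441 in the others, and 969.9 TPM in 10-day library 1, against 748 to 783 in the others. ATPsynE had 1041 TPM in 30-day library 1, against 284 to 335 in the others, and 941 TPM in 10-day library 1, against 531 to 561 in the others. UQCR-11 had 108 TPM in 30-day library 1, against 41.3 to 48.3 in the others, and 177 TPM in 10-day library 1, against 71.7 to 77.5 in the others. The remaining 3 were UQCR-C1, at 212 TPM in 30-day library 1 and 166 to 173 in the others, ND-B18, at 81.4 TPM in 10-day library 2 and 152 to 164 in the others, and UQCR-11L, at 1.87 TPM in Adar knockdown library 3 and 0 to 0.0581 in the others. In 10-day library 1 fat body markers summed to 148 TPM, against 0.626 to 1.82 TPM in the other 3, and enteroendocrine markers to 1961 TPM, against 124 to 200 TPM; their part in these values was not tested.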

How the results depend on the processing

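Counts of called subunits depended on the scaling and on single libraries, and no called gene turned its sign in the alternatives run. The median of the subunits did in some alternatives, among them Adar knockdown without 10-day library 1 (0.02) and both comparisons after median-ratio scaling. After that scaling it was 0.10 with age and 0.35 on Adar knockdown, against −0.29 and −0.08 as deposited. The median of all genes was 0.04 and 0.02, against −0.32 and −0.39. Annotated totals were highest in 10-day lacZ libraries, so rescaling them to 1000000 also raises the subunit medians of both comparisons. With age, 0 were higher as deposited, 1 with no filter on low values, 1 after median-ratio scaling, 4 after that scaling without 10-day library 1 (chosen after seeing the data), and 0 to 2 with a library left out. With age, 0 were lower as deposited, 1 with a mean TPM of at least 5, and 0 to 9 with a library left out. On Adar knockdown, 2 were higher as deposited, 1 with no filter, 4 after median-ratio scaling, 0 with 10-day lacZ libraries 3 and 4 averaged, 12 after median-ratio scaling without 10-day library 1, and 0 to 5 with a library left out. On Adar knockdown, 3 were lower as deposited, 1 with annotated genes rescaled to 1000000, 1 with libraries 3 and 4 averaged, 0 after median-ratio scaling with or without 10-day library 1, and 0 to 3 with a library left out. The causes were not tested. In the Adar against 30-day, Zn72d and E374A comparisons the counts stayed at 0 with any library left out.

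Replicate numbers did not pair the libraries throughout: same-numbered libraries had deviations with correlations between −0.300 and 0.224. With age the correlations were 0.224, 0.118, −0.080 and 0.217 for numbers 1 to 4. There the same number was the best match in 3 of 4 pairs, so whether the lacZ libraries are paired is not settled. A replicate block gave 3 lower subunits with age (ATPsynB, ATPsynD and ND-MLRQ), 1 higher (ND-PDSW) and 3 lower (ATPsynD, ATPsyndelta and SdhA) on Adar knockdown, where ND-75 was lost, and 2 higher subunits in the Zn72d set, ND-30 (adjusted p = 0.0474 by limma) and SdhC (adjusted p = 0.0195). Depth per gene is unknown without read counts, so paralogs under 1 TPM are not separable from 0 here.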
